A study of Homo sapiens with 16 samples.

Results

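This account covers 41 genes of glycolysis and of the response to low oxygen in LNCaP, a human cell line grown from a prostate cancer metastasis. They were listed by symbol, all 41 were found among the 62754 genes counted, and they comprise 17 glycolytic enzymes, 4 glucose and lactate transporters, 3 PFKFB enzymes and 17 genes of the hypoxia-inducible factor (HIF) pathway or its other targets. The 4 groups were p53 knockout (p53 KO) cells given the GCN2 inhibitor GCN2iB, p53 KO cells given vehicle, wild-type (WT) cells given GCN2iB and WT cells given vehicle, with 4 libraries of total RNA in each. GCN2iB was used at 5 µM for 48 h, the vehicle was DMSO, and the p53 KO was made with CRISPR. All 4 groups grew in RPMI-1640 without phenol red and with serum. The labels give neither the oxygen tension nor whether the p53 KO line is 1 clone or many. They also do not say whether the 4 replicates are separate cultures. A p-value here sets a difference against the spread between these libraries, which may not include differences between cultures. The design crosses the loss of p53 with inhibition of GCN2, a kinase that senses amino acid shortage, and so asks how each changes transcript levels and whether they interact.

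Glycolysis turns glucose into pyruvate in the cytosol, and lactate dehydrogenase then turns pyruvate into lactate, which leaves the cell through monocarboxylate transporters. The PFKFB enzymes make and remove fructose 2,6-bisphosphate, the strongest activator of phosphofructokinase, the committed step. HIF is a transcription factor whose alpha subunit is marked for destruction by the EGLN prolyl hydroxylases when oxygen is present. When the subunit is stable, HIF binds a short DNA core and raises transcription of glucose transporters, most glycolytic enzymes, the kinase PDK1 and VEGFA. p53 is known to restrain glycolysis in many cell types, partly by inducing TIGAR, a phosphatase that removes fructose 2,6-bisphosphate.

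The promoters of 4 members are shown because their transcripts were lower in p53 KO cells and because they differ in the HIF core. Each is the 250 bases before the RefSeq start in GRCh38.p14, on the strand of the gene, with every ACGTG and its reverse complement CACGT in capitals. LDHA (chr11:18394313-18394562, plus strand), BNIP3 (chr10:131981924-131982173, minus strand) and PGK1 (chrX:78103998-78104247, plus strand) hold the core, and PFKP (chr10:3067720-3067969, plus strand) does not.
LDHA: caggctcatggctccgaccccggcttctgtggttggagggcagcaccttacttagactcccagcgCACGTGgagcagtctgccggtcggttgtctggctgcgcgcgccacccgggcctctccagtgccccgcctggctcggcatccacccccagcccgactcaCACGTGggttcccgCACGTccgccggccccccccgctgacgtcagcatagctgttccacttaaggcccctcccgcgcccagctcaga
BNIP3: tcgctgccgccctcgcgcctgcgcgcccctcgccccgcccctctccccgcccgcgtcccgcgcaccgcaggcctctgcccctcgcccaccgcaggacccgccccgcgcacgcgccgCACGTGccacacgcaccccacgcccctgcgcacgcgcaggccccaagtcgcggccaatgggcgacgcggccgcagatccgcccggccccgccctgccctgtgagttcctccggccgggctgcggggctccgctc
PGK1: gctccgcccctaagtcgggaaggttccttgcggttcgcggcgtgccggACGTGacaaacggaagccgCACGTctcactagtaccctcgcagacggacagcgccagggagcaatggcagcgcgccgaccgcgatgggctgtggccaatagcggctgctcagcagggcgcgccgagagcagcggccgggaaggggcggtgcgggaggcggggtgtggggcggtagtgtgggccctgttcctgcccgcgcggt
PFKP: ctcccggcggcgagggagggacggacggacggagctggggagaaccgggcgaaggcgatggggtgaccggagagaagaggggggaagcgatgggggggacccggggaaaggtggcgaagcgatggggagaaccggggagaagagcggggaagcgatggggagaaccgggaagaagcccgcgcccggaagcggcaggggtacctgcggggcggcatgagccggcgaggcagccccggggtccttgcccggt
The run CACGTG reads the same on both strands and counts as 2 matches, so the 5 matches of LDHA lie at 3 places, 185, 87 and 73 bases before the start. The sequence table held promoters for 35 of the 41 members. Only 1 start per gene was searched, so a core near another start or outside the 250 bases was not looked for. ACGTG on either strand was found in 15 of these 35 (42.9%) and in 18.7% of all 27305 promoters of the same length. Of the 17 glycolytic enzymes 8 held it (47.1%), and of 14 HIF pathway members 7 (50%). The variant core GCGTG was found in 13 of the 35 (37.1%) and in 31.9% of all promoters. Many members were listed as known HIF targets, so these shares describe the list. The promoters shown do not stand for all members that were lower in p53 KO cells. Among members at least 0.5 lower on the log2 scale under vehicle, with groups that did not overlap, BNIP3 held ACGTG. PFKP, SLC16A3, PFKFB4, PDK1 and KDM3A did not hold it in the window searched, and BNIP3L had no promoter to search. Of these, BNIP3, PFKFB4 and KDM3A held GCGTG. TGATGNAA, the element bound by ATF4, the transcription factor downstream of GCN2, was found in 1 of the 35 promoters (2.86%) and in 3.19% of all.

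Levels are CPM (counts relative to the scaled library total), with SD over 4 libraries (n = 4), and differences are log2 ratios with their standard error (SE). Adjusted p-values are from the quasi-likelihood test of edgeR with Benjamini-Hochberg adjustment over 18549 tested genes. A gene is said to rise or fall only where that p is under 0.05. Library totals ran from 17418072 to 39915685 counts. CDKN1A, the p53 target that encodes p21, stood at 42.9 ± 5.97 CPM in p53 KO GCN2iB, 37.5 ± 3.73 CPM in p53 KO vehicle, 464 ± 60.1 CPM in WT GCN2iB and 275 ± 21.1 CPM in WT vehicle. EIF2AK4, which encodes GCN2, averaged 117 CPM in p53 KO GCN2iB, 129 CPM in p53 KO vehicle, 112 CPM in WT GCN2iB and 138 CPM in WT vehicle. On the first principal component, which took 33.8% of the variance and set p53 KO apart from WT, WT GCN2iB replicate 4 lay at -18.72 and the other 3 WT GCN2iB libraries at -36.06 to -33.54. All 9 luminal prostate markers were tested and summed to 5352 to 5825 CPM in p53 KO GCN2iB, 6063 to 6183 CPM in p53 KO vehicle, 5724 to 5965 CPM in WT GCN2iB and 6502 to 6812 CPM in WT vehicle, with KLK3 at 1279 to 1886 CPM. Of 5 basal markers 3 were tested, and the list summed to 4.22 to 5.79 CPM in every library, with KRT5 and TP63 at or near 0. That sum hides opposite changes. In p53 KO vehicle relative to WT vehicle 2 of the 3 rose and 1 fell, with log2 ratios from -0.96 to 1.64. The 7 stromal markers, 6 of them tested, summed to 24.7 to 32.2 CPM. The immune and blood list of 6 had 1 tested gene, LYZ, and summed to 0.475 to 1.12 CPM in p53 KO GCN2iB, 0.409 to 1.45 CPM in p53 KO vehicle, 0.0931 to 0.39 CPM in WT GCN2iB and 0 to 0.203 CPM in WT vehicle, with PTPRC and CD3E at or near 0. The luminal sum was lower in p53 KO vehicle than in WT vehicle and lower with GCN2iB in each genotype, and the immune sum was higher in p53 KO. Between genotypes under vehicle 4 of the 9 luminal markers fell and 1 rose, with log2 ratios from -0.51 to 0.66. In that comparison 21.7% of all tested genes were called. With GCN2iB 6 of the 9 fell in WT cells and 4 in p53 KO cells, and 0 rose in either. Those shares were 66.7% and 44.4%, against 25.2% and 20.1% of all tested genes. The part of the cell type markers in the results was not tested. In bulk RNA, fewer cells with a transcript and less of it per cell cannot be told apart.

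Of the 41 members 40 passed the count filter and were tested. CA9, a carbonic anhydrase widely used as a marker of hypoxia, had 29 counts over all 16 libraries and did not pass it. Summed over the 17 glycolytic enzymes, the level was 11540 ± 561 CPM in p53 KO GCN2iB, 9629 ± 391 CPM in p53 KO vehicle, 12640 ± 467 CPM in WT GCN2iB and 12310 ± 780 CPM in WT vehicle. The 4 p53 KO vehicle libraries, at 9179 to 10120 CPM, lay below all 12 others, the lowest of which stood at 10900 CPM in p53 KO GCN2iB. This sum is set mostly by ENO1, GAPDH, PKM, LDHA and TPI1, which averaged 2340, 2000, 1670, 1260 and 1020 CPM over all libraries. The HIF pathway members summed to 933 ± 48.6 CPM in p53 KO GCN2iB, 973 ± 66.5 CPM in p53 KO vehicle, 1093 ± 33.3 CPM in WT GCN2iB and 1228 ± 55.4 CPM in WT vehicle, and the WT vehicle libraries lay above all others.

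**Figure D1:**
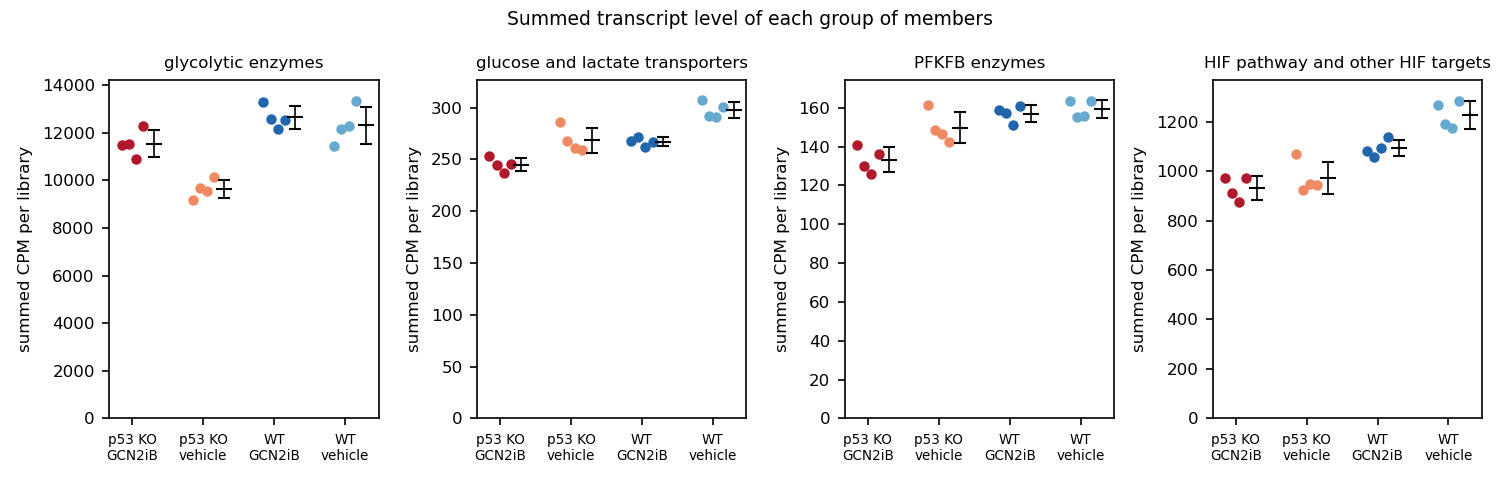
Summed transcript level, in CPM per library, of the glycolytic enzymes, the transporters, the PFKFB enzymes and the HIF pathway members, where points are libraries and bars are the mean and SD of 4 libraries in each of the 4 groups. For the glycolytic enzymes the p53 KO vehicle libraries (9179 to 10120 CPM) sit below every other library, and for the HIF pathway members the WT vehicle libraries (1173 to 1283 CPM) sit above every other.

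Under vehicle, most of the tested members were lower in p53 KO than in WT cells. Of the 40 tested members 27 fell and 3 rose in p53 KO vehicle relative to WT vehicle (75.0% called), where 21.7% of all tested genes were called, 12.1% of them lower and 9.63% higher. The median log2 ratio of the members was -0.33, against 0.01 over all tested genes. The 3 that rose were SLC2A3, PFKFB2 and P4HA2. The groups did not overlap for 30 of 40 members, against 22.7% of all tested genes. For 8 members they were also called and at least 0.5 apart on the log2 scale (PFKP, SLC2A3, SLC16A3, PFKFB4, PDK1, BNIP3, BNIP3L and KDM3A), against 8.32% of all tested genes. In this comparison the share of higher calls among all genes was 44.4%, and 60.8% (2467 higher and 1593 lower) with library totals as the only scaling, under which 26 members still fell and 3 rose. Without p53 KO vehicle replicate 1 the counts were again 27 and 3. Each group enters more than 1 of the comparisons given here, so they share libraries.

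The genotypes were also compared under GCN2iB. In p53 KO GCN2iB relative to WT GCN2iB 17 of 40 fell and 2 rose, SLC2A3 and PFKFB2 (47.5% called), where 23.9% of all tested genes were called, 11.2% lower and 12.7% higher. The median was -0.17, against 0.03 over all tested genes. The groups did not overlap for 18 of 40 members, against 25.1% of all tested genes, and 3 of them were called and at least 0.5 apart (SLC2A3, SLC16A3 and PFKFB4), against 8.22% of all tested genes. Without WT GCN2iB replicate 4 the counts were 16 and 2.

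GCN2iB moved members both ways in each genotype. In p53 KO cells 11 of 40 members rose and 6 fell relative to vehicle (42.5% called), where 20.1% of all tested genes were called, 11.4% higher and 8.71% lower. The members' median was 0.13, against -0.01 over all tested genes, and 0 members were called without overlap and at least 0.5 apart, against 3.71% of all tested genes. With library totals as the only scaling 8 members rose and 7 fell, and the share of higher calls among all genes was 34.4% (1401 higher and 2672 lower) in place of 56.7%. In WT cells 7 of 40 rose and 8 fell (37.5% called), where 25.2% of all tested genes were called, 11.6% higher and 13.6% lower. Their median was -0.02, against -0.03 over all tested genes, and 4 members were called without overlap and at least 0.5 apart (ALDOA, LDHB, PDK1 and EGLN1), against 5.43% of all tested genes. With both GCN2iB replicate 4 libraries left out, 9 members rose and 5 fell in p53 KO cells, and 7 rose and 8 fell in WT cells.

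**Figure D2:**
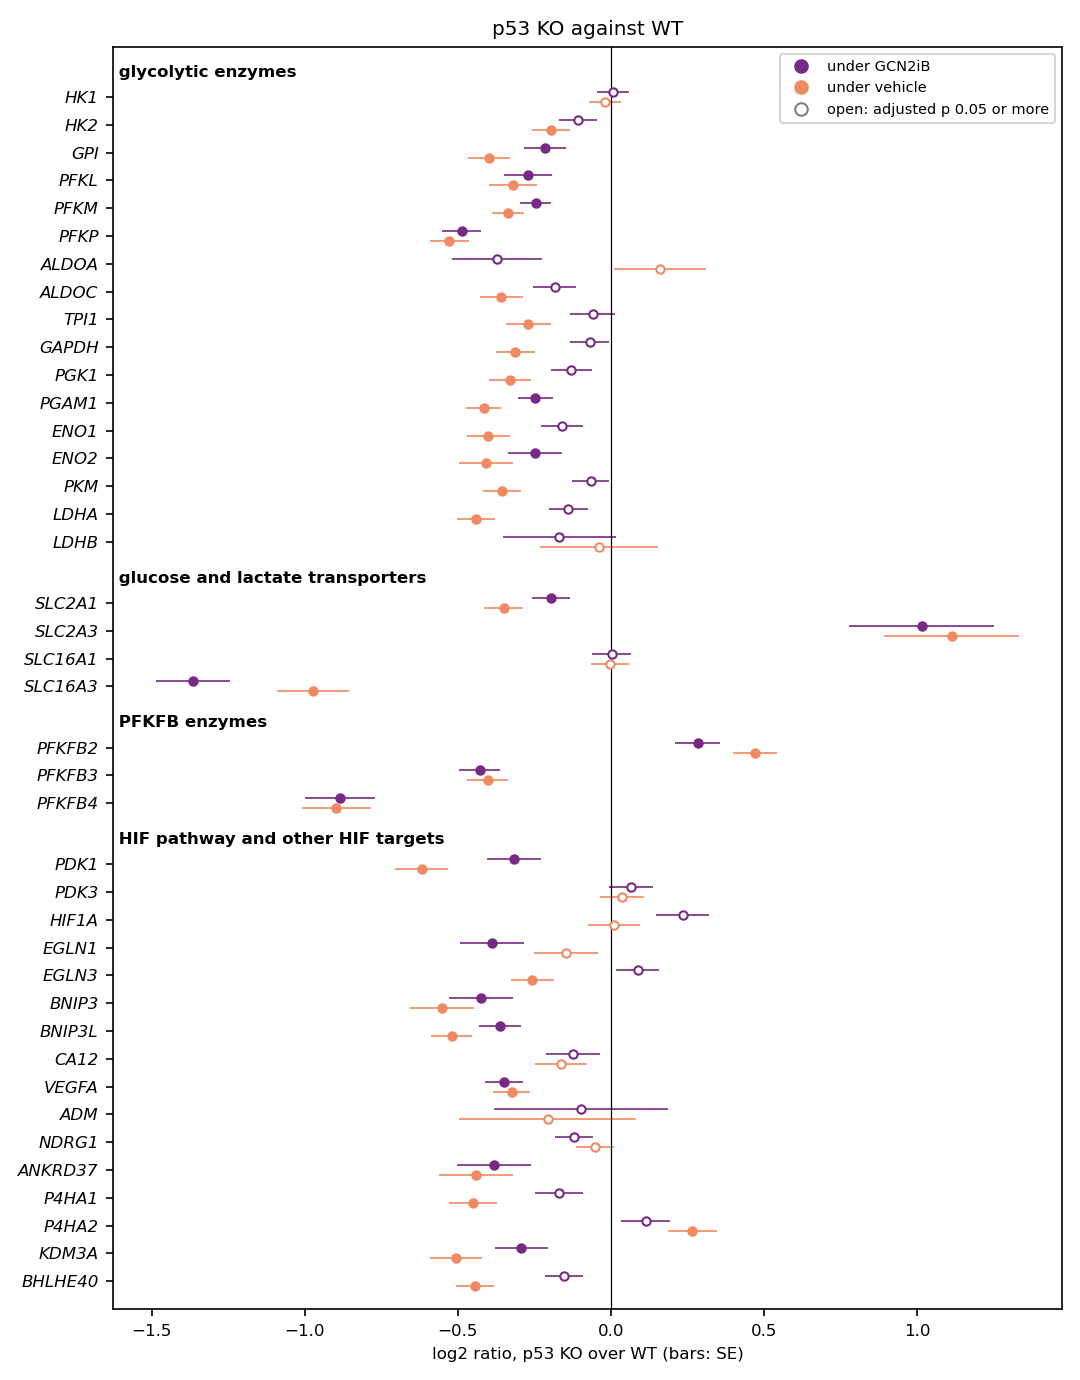
The log2 ratio of p53 KO over WT for each of the 40 tested members, under GCN2iB and under vehicle, with SE bars; filled points have an adjusted p under 0.05. Under vehicle 27 members are filled and below 0, under GCN2iB 17 are, and SLC2A3 and PFKFB2 are filled and above 0 in both.

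Among the glycolytic enzymes 14 of 17 fell and 0 rose in p53 KO vehicle relative to WT vehicle, with a median log2 ratio of -0.34. That is 82.4% called against 21.7% of all tested genes. For 13 of the 14 the groups did not overlap, against 22.7% of all tested genes. HK1, ALDOA and LDHB were the 3 that did not pass. HK1 and HK2 are hexokinases, which trap glucose in the cell as glucose 6-phosphate. Per kilobase of exon HK1 made up 68.3%, 68.5%, 66.5% and 65.8% of the pair in p53 KO GCN2iB, p53 KO vehicle, WT GCN2iB and WT vehicle. HK1 (ENSG00000156515, chromosome 10, 69269984 to 69401884) stood at 243, 242, 239 and 237 CPM in p53 KO GCN2iB, 224, 255, 244 and 256 CPM in p53 KO vehicle, 251, 240, 235 and 232 CPM in WT GCN2iB and 239, 252, 249 and 252 CPM in WT vehicle. All 4 groups of HK1 overlapped, and its 4 log2 ratios lay between -0.05 and 0.01. HK2, the inducible form, fell by 0.20 in p53 KO vehicle relative to WT vehicle (108 ± 7.07 against 124 ± 5.5 CPM, adjusted p = 0.0259, 0.00315 to 0.157 over the alternatives). Its call ended with library totals (0.157) and without WT vehicle replicate 3 (0.0649) or p53 KO vehicle replicate 4 (0.0867). The HK2 call was also lost with no count filter (0.0593), a filter at a mean of 50 counts (0.0599) or only the groups compared (0.0522). GPI, which isomerises glucose 6-phosphate, fell in p53 KO cells under vehicle (log2 -0.40, SE 0.07, adjusted p = 0.000153) and under GCN2iB (-0.22, SE 0.07, adjusted p = 0.0248, 0.00486 to 0.122 over the alternatives). Under GCN2iB its call ended without WT GCN2iB replicate 1 (0.0816) or 2 (0.0784) or p53 KO GCN2iB replicate 3 (0.056). It also ended with trends on GC content and length removed (0.122), a setting added after the data were seen.

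The 3 phosphofructokinases PFKL, PFKM and PFKP, which catalyse the committed step, were lower in p53 KO than in WT under both treatments. PFKP (ENSG00000067057, chromosome 10, 3066333 to 3137712) stood at 126, 121, 108 and 125 CPM in p53 KO GCN2iB, against 171, 176, 159 and 167 CPM in WT GCN2iB. Under vehicle it stood at 103, 109, 108 and 115 CPM in p53 KO, against 143, 163, 159 and 163 CPM in WT. No p53 KO library reached the lowest WT library, and the log2 ratios were -0.49 (SE 0.06, adjusted p = 4.53e-06) under GCN2iB and -0.53 (SE 0.06, adjusted p = 1.27e-06) under vehicle. PFKL (ENSG00000141959, chromosome 21, 44300051 to 44327376), per kilobase the most abundant of the 3, stood at 358, 364, 327 and 398 CPM in p53 KO GCN2iB, against 435, 474, 421 and 416 CPM in WT GCN2iB. Its levels under vehicle were 286, 337, 331 and 365 CPM in p53 KO, against 355, 434, 417 and 442 CPM in WT. The WT vehicle library at 355 CPM lay within the p53 KO range, and PFKL fell by 0.32 under vehicle (adjusted p = 0.00437) and by 0.27 under GCN2iB (adjusted p = 0.0143, 0.000557 to 0.238 over the alternatives). Under GCN2iB the PFKL call ended without WT GCN2iB replicate 2 (0.0654) and with trends on GC content and length removed (log2 -0.07, adjusted p = 0.238), a setting added after the data were seen. PFKM was lower in p53 KO (log2 -0.34 under vehicle and -0.24 under GCN2iB) and rose with GCN2iB in p53 KO (0.28, SE 0.05, adjusted p = 0.00042) and in WT cells (0.19, SE 0.05, adjusted p = 0.00867). PFKP took 25.5% and 26.3% of the phosphofructokinase transcripts per kilobase in p53 KO GCN2iB and vehicle, against 28.6% and 29% in WT GCN2iB and vehicle, and PFKL took 40.2% to 43.0% in each group.

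Aldolase splits fructose 1,6-bisphosphate. ALDOA, the ubiquitous form, was counted at only 3.54 to 6.97 CPM, and 42.3% of its exon bases are shared on the same strand with the gene ENSG00000285043, itself at 2.02 to 4.5 CPM, so its level is uncertain. ALDOA (ENSG00000149925, chromosome 16, 30064164 to 30070457) stood at 4.63, 4.82, 3.69 and 6.76 CPM in p53 KO GCN2iB and 5.04, 3.98, 4.45 and 5.32 CPM in p53 KO vehicle. In WT cells it stood at 5.74, 6.59, 6.84 and 6.97 CPM under GCN2iB, against 3.54, 4.98, 4.49 and 3.7 CPM under vehicle. The WT groups did not overlap and ALDOA rose with GCN2iB there (log2 0.64, SE 0.15, adjusted p = 0.00295). Between genotypes under GCN2iB its log2 ratio was -0.37 (adjusted p = 0.0678, 0.00355 to 0.151 over the alternatives), and it passed without WT vehicle replicate 1 (0.0452) or 2 (0.0497), p53 KO vehicle replicate 4 (0.0483) or p53 KO GCN2iB replicate 4 (0.00355). ALDOC (ENSG00000109107, chromosome 17, 28573115 to 28577264), the form first known from brain, took 94.0% to 96.1% of the counted aldolase transcripts per kilobase. It stood at 67.8, 67.1, 60.6 and 73.8 CPM in p53 KO GCN2iB, against 80.3, 75.2, 73.7 and 76.9 CPM in WT GCN2iB. Under vehicle ALDOC stood at 62.0, 57.0, 59.1 and 62.6 CPM in p53 KO, against 69.5, 75.0, 76.6 and 87.2 CPM in WT. The vehicle groups did not overlap and ALDOC fell there (log2 -0.36, SE 0.07, adjusted p = 0.000576). Under GCN2iB the groups met at 1 library and the log2 ratio was -0.18 (adjusted p = 0.0616, 0.0136 to 0.142 over the alternatives), which passed without any 1 of the 8 vehicle libraries (0.0235 to 0.0475) and without p53 KO GCN2iB replicate 4 (0.0172).

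The enzymes of the lower part of the pathway, from triose phosphate isomerase (TPI1) to pyruvate kinase (PKM), all fell in p53 KO vehicle relative to WT vehicle, and most of them rose with GCN2iB in p53 KO cells. ENO1 (ENSG00000074800, chromosome 1, 8861000 to 8879250), the main enolase, which makes phosphoenolpyruvate, stood at 2323, 2353, 2239 and 2633 CPM in p53 KO GCN2iB, against 1721, 1879, 1786 and 2007 CPM in p53 KO vehicle. In WT cells it stood at 2859, 2730, 2475 and 2601 CPM under GCN2iB, against 2178, 2454, 2438 and 2689 CPM under vehicle. Every p53 KO vehicle library of ENO1 lay below all libraries of the other 3 groups. ENO1 fell by 0.40 in p53 KO vehicle relative to WT vehicle (SE 0.07, adjusted p = 0.000169) and rose by 0.37 with GCN2iB in p53 KO cells (SE 0.07, adjusted p = 0.000613). In WT cells its ratio of GCN2iB over vehicle was 0.13 (adjusted p = 0.191), and between genotypes under GCN2iB it was -0.16 (adjusted p = 0.102, 0.024 to 0.248 over the alternatives). The last passed without WT vehicle replicate 1 (0.0377) or p53 KO GCN2iB replicate 4 (0.024). Under vehicle TPI1 fell by 0.27, GAPDH by 0.31, PGK1, the first enzyme that yields ATP, by 0.33, PGAM1, which moves the phosphate of phosphoglycerate, by 0.42 and PKM by 0.36. Leaving out WT vehicle replicate 4 ended the call for TPI1 (adjusted p = 0.0101, 0.000113 to 0.0506 over the alternatives). With GCN2iB in p53 KO cells TPI1 rose by 0.32, GAPDH by 0.28 and PKM by 0.31, with adjusted p-values between 0.000953 and 0.00343. GAPDH averaged 2050 ± 75.4 CPM in p53 KO GCN2iB, 1687 ± 102 CPM in p53 KO vehicle, 2152 ± 114 CPM in WT GCN2iB and 2094 ± 158 CPM in WT vehicle. PGK1 and PGAM1 did not pass with GCN2iB in p53 KO cells (log2 0.13 and 0.10, adjusted p = 0.175 and 0.229). PGAM1 also fell in p53 KO relative to WT under GCN2iB (log2 -0.25, SE 0.06, adjusted p = 0.00304). ENO2, the neuronal enolase, took only 1.2% to 1.34% of the enolase transcripts per kilobase. It fell by 0.41 in p53 KO vehicle relative to WT vehicle and rose with GCN2iB by 0.45 in p53 KO cells (adjusted p = 0.000894) and by 0.29 in WT cells (adjusted p = 0.0174, 0.00142 to 0.0607 over the alternatives). In WT cells the ENO2 call was lost when WT GCN2iB replicate 1 (0.0607) or WT vehicle replicate 3 (0.054) was left out. Between genotypes under GCN2iB it fell by 0.25 at an adjusted p of 0.043 (0.00511 to 0.132 over the alternatives), a call that ended without WT GCN2iB replicate 1 (0.132), 2 (0.0871) or 4 (0.0669) or p53 KO GCN2iB replicate 2 (0.0886) or 3 (0.0893). Library totals (0.0613) and removal of the trends on GC content and length (0.063) also ended that ENO2 call. GAPDH has 62 annotated pseudogene copies, PGAM1 13, LDHA 6, PKM 5, and TPI1 and ENO1 4 each, so reads could be split between these genes and their copies.

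Lactate dehydrogenase as counted was almost wholly LDHA, the form that favours lactate, at 99.4% to 99.6% of the counted transcripts per kilobase in each group. LDHA (ENSG00000134333, chromosome 11, 18394388 to 18408425), whose promoter is shown above, stood at 1250, 1207, 1165 and 1337 CPM in p53 KO GCN2iB, against 1121, 971, 1001 and 1020 CPM in p53 KO vehicle. In WT cells it stood at 1355, 1310, 1360 and 1435 CPM under GCN2iB, against 1459, 1302, 1325 and 1500 CPM under vehicle. The p53 KO vehicle libraries were the lowest 4 of the 16, and the WT groups overlapped. LDHA fell by 0.44 in p53 KO vehicle relative to WT vehicle (SE 0.06, adjusted p = 1.34e-05) and rose by 0.27 with GCN2iB in p53 KO cells (SE 0.06, adjusted p = 0.00357), while its ratio of GCN2iB over vehicle in WT cells was -0.03 (adjusted p = 0.745). Between genotypes under GCN2iB the LDHA ratio was -0.14 (adjusted p = 0.113, 0.027 to 0.252 over the alternatives) and passed without p53 KO vehicle replicate 1 (0.0424) or p53 KO GCN2iB replicate 4 (0.037). LDHB (ENSG00000111716, chromosome 12, 21635342 to 21757857), the form that favours pyruvate, stood at 2.65, 3.17, 2.3 and 4.75 CPM in p53 KO GCN2iB and 2.56, 2.56, 2.74 and 2.16 CPM in p53 KO vehicle. In WT cells LDHB stood at 3.63, 3.46, 3.5 and 4.11 CPM under GCN2iB, against 1.77, 2.24, 2.65 and 3.43 CPM under vehicle. The lowest WT GCN2iB library, at 3.46 CPM, lay just above the highest WT vehicle library, at 3.43 CPM. On the same strand 33.4% of the exon bases of LDHB are shared with another gene, so its level and the LDHA share are uncertain. LDHB rose with GCN2iB in WT cells at an adjusted p of 0.0475 (log2 0.52, SE 0.19, 0.011 to 0.128 over the alternatives). That call was lost without any 1 of the 4 WT GCN2iB libraries or WT vehicle replicate 1, 2 or 3 (0.069 to 0.128), without p53 KO vehicle replicate 2 (0.0501) and without p53 KO GCN2iB replicate 2 (0.057). It was also lost with library totals (0.0507) and without both GCN2iB replicate 4 libraries (0.053).

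Counted over the 17 glycolytic enzymes, 6 fell and 0 rose in p53 KO GCN2iB relative to WT GCN2iB (GPI, PFKL, PFKM, PFKP, PGAM1 and ENO2), with a median of -0.17, which is 35.3% called against 23.9% of all tested genes. That count was 10 without p53 KO GCN2iB replicate 4 and 3 without WT GCN2iB replicate 2. With GCN2iB in p53 KO cells 7 of 17 rose and 0 fell (PFKM, TPI1, GAPDH, ENO1, ENO2, PKM and LDHA), with a median of 0.16, which is 41.2% called against 20.1% of all tested genes. In WT cells 4 of 17 rose and 0 fell (PFKM, ALDOA, ENO2 and LDHB), with a median of 0.04. That is 23.5% called, no more than the 25.2% of all tested genes, and 2 rose without WT vehicle replicate 3 or without WT GCN2iB replicate 1.

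**Figure D3:**
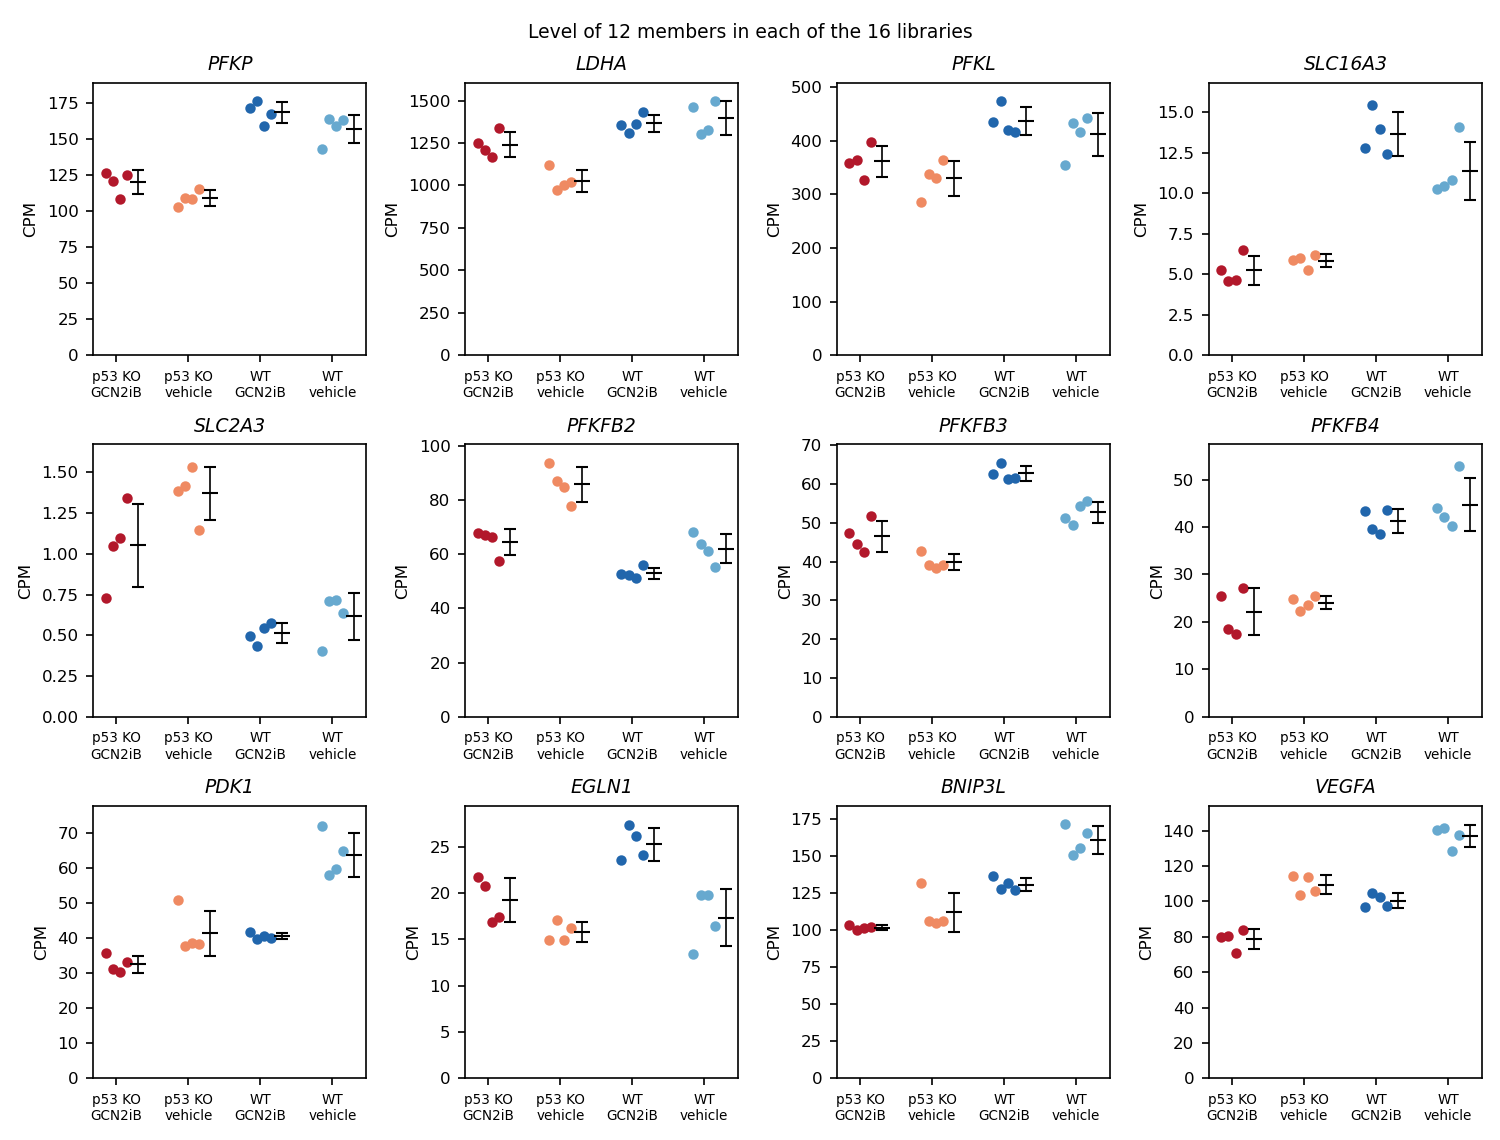
CPM of 12 members in each of the 16 libraries, with bars for the mean and SD of 4 libraries; the axis of every panel starts at 0. PFKP, SLC16A3 and PFKFB4 are lower in all 8 p53 KO libraries than in any WT library, PFKFB2 is highest in p53 KO vehicle, and PDK1 is highest in WT vehicle.

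The transporters did not move together. SLC2A1, the main glucose transporter GLUT1, held 98.8% to 99.7% of the transcripts of the pair SLC2A1 and SLC2A3 per kilobase in p53 KO vehicle and WT GCN2iB, the lowest and highest groups. It averaged 98.5 ± 8.32 CPM in p53 KO GCN2iB, 87.1 ± 2.92 CPM in p53 KO vehicle, 113 ± 4.34 CPM in WT GCN2iB and 111 ± 5.58 CPM in WT vehicle. SLC2A1 fell by 0.35 in p53 KO relative to WT under vehicle (SE 0.06, adjusted p = 0.000229) and by 0.20 under GCN2iB (adjusted p = 0.0262, 0.00421 to 0.0908 over the alternatives). The call under GCN2iB ended without WT GCN2iB replicate 2 (0.0908) or p53 KO GCN2iB replicate 2 (0.0584) or 3 (0.0666). With GCN2iB in p53 KO cells SLC2A1 was 0.18 higher at an adjusted p of 0.0456, which was over 0.05 under 18 of 26 alternatives (0.00454 to 0.215 over all), library totals (0.215) among them. The omission of any 1 of the 4 p53 KO vehicle libraries (0.0601 to 0.109), of p53 KO GCN2iB replicate 1, 2 or 4 (0.0842 to 0.139), of WT vehicle replicate 2 or 3 (0.0596 and 0.062) or of WT GCN2iB replicate 1, 3 or 4 (0.0514 to 0.0563) ended it.

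SLC2A3 (ENSG00000059804, chromosome 12, 7919230 to 7936275), the high-affinity glucose transporter GLUT3, went the other way at a low level. It stood at 0.726, 1.046, 1.09 and 1.34 CPM in p53 KO GCN2iB, against 0.497, 0.437, 0.546 and 0.572 CPM in WT GCN2iB. Under vehicle it stood at 1.39, 1.42, 1.53 and 1.15 CPM in p53 KO, against 0.405, 0.707, 0.716 and 0.636 CPM in WT. All p53 KO libraries lay above the WT libraries of the same treatment, and SLC2A3 rose 2.02-fold under GCN2iB (log2 1.02, SE 0.24, adjusted p = 0.00287) and 2.16-fold under vehicle (log2 1.11, SE 0.22, adjusted p = 0.000641). It rests on 477 counts in all 16 libraries, and reads shared with its near-identical neighbour SLC2A14 could be split between the genes. SLC16A1, the lactate transporter MCT1, showed no difference between genotypes that passed (log2 0.00 under vehicle, SE 0.06, adjusted p = 0.983, and 0.00 under GCN2iB, SE 0.06, adjusted p = 0.976). It fell with GCN2iB by 0.31 in p53 KO cells (140 ± 6.84 against 174 ± 14.1 CPM, adjusted p = 0.00118) and by 0.32 in WT cells (140 ± 3.12 against 175 ± 11.9 CPM, adjusted p = 0.000793).

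SLC16A3 (ENSG00000141526, chromosome 17, 82228397 to 82261129), the lactate exporter MCT4 and a HIF target, had the lowest log2 ratio of p53 KO over WT among the members under both treatments. Its levels were 5.28, 4.56, 4.67 and 6.49 CPM in p53 KO GCN2iB, against 12.8, 15.5, 14.0 and 12.4 CPM in WT GCN2iB. Under vehicle they were 5.9, 6.0, 5.27 and 6.17 CPM in p53 KO, against 10.3, 10.4, 10.8 and 14.1 CPM in WT. The genotypes were far apart in every library, and SLC16A3 was 2.58-fold lower in p53 KO under GCN2iB (log2 -1.37, SE 0.12, adjusted p = 1.35e-08) and 1.96-fold lower under vehicle (log2 -0.97, SE 0.12, adjusted p = 1.47e-06). With GCN2iB in WT cells its ratio was 0.25 (adjusted p = 0.104, 0.0157 to 0.286 over the alternatives), which passed without WT vehicle replicate 4 (0.0157), and in p53 KO cells it was -0.14 (adjusted p = 0.476). Over the 4 transporters 1 rose and 2 fell in p53 KO relative to WT under each treatment, 1 rose and 1 fell with GCN2iB in p53 KO cells, and 0 rose and 1 fell with GCN2iB in WT cells. The shares called between genotypes were 75% under vehicle (21.7% of all tested genes) and 75% under GCN2iB (23.9%). With GCN2iB they were 50% in p53 KO cells (20.1%) and 25% in WT cells, near the 25.2% of all tested genes. The rise in p53 KO cells is that of SLC2A1, lost under most alternatives as given above.

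Between genotypes, the 3 PFKFB enzymes moved in opposite directions. PFKFB2, the form first known from heart, rose in p53 KO relative to WT, while PFKFB3, the inducible form with the highest kinase activity, and PFKFB4, a HIF target, fell under both treatments. PFKFB4 (ENSG00000114268, chromosome 3, 48517684 to 48562015) stood at 25.5, 18.5, 17.5 and 27.2 CPM in p53 KO GCN2iB, against 43.4, 39.7, 38.5 and 43.6 CPM in WT GCN2iB. Under vehicle it stood at 24.8, 22.3, 23.6 and 25.5 CPM in p53 KO, against 43.9, 42.0, 40.1 and 52.9 CPM in WT. The highest p53 KO library, at 27.2 CPM, lay below the lowest WT library, at 38.5 CPM, and PFKFB4 was 1.85-fold lower in p53 KO under GCN2iB (log2 -0.89, SE 0.11, adjusted p = 5.39e-06) and 1.86-fold lower under vehicle (log2 -0.90, SE 0.11, adjusted p = 3.16e-06). It did not pass with GCN2iB in either genotype (log2 -0.10 in p53 KO and -0.12 in WT cells). PFKFB3 averaged 46.5 ± 4.09 CPM in p53 KO GCN2iB, 39.9 ± 2.04 CPM in p53 KO vehicle, 62.8 ± 1.91 CPM in WT GCN2iB and 52.7 ± 2.76 CPM in WT vehicle. It fell in p53 KO relative to WT by 0.43 under GCN2iB (adjusted p = 4.32e-05) and by 0.40 under vehicle (adjusted p = 9.04e-05), and rose with GCN2iB by 0.25 in WT cells (adjusted p = 0.00748). In p53 KO cells PFKFB3 rose by 0.22 with GCN2iB (adjusted p = 0.0195, 0.00411 to 0.102 over the alternatives), a call that ended without p53 KO vehicle replicate 2 (0.0531) or 3 (0.0667) or p53 KO GCN2iB replicate 4 (0.0782). It was also lost with library totals (0.102), no count filter (0.0552) or only the groups compared (0.0585), and without both GCN2iB replicate 4 libraries (0.0854).

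PFKFB2 averaged 64.6 ± 4.84 CPM in p53 KO GCN2iB, 85.8 ± 6.44 CPM in p53 KO vehicle, 53 ± 2.03 CPM in WT GCN2iB and 62.0 ± 5.43 CPM in WT vehicle. It rose in p53 KO relative to WT by 0.28 under GCN2iB (SE 0.07, adjusted p = 0.00621) and by 0.47 under vehicle (SE 0.07, adjusted p = 3.88e-05), and fell by 0.41 with GCN2iB in p53 KO cells (SE 0.07, adjusted p = 0.000308). In WT cells it fell by 0.22 with GCN2iB (adjusted p = 0.0276, 0.00439 to 0.124 over the alternatives), a call lost when WT GCN2iB replicate 1, 2 or 3 (0.051 to 0.0798) or WT vehicle replicate 1, 2 or 3 (0.0693 to 0.124) was left out. Per kilobase of exon PFKFB2 made up 36.2% of the 3 PFKFB transcripts in p53 KO GCN2iB, 44.5% in p53 KO vehicle, 23.4% in WT GCN2iB and 27.7% in WT vehicle. PFKFB4 made up 20.5% in p53 KO GCN2iB, 20.9% in p53 KO vehicle, 30.4% in WT GCN2iB and 33.2% in WT vehicle. The shares of PFKFB2 and PFKFB4 did not overlap between genotypes, and those of PFKFB3 overlapped under GCN2iB (41.7% to 45.7% in p53 KO and 44.4% to 48.0% in WT) but not under vehicle (34.0% to 35.2% in p53 KO and 37.7% to 41.5% in WT).

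**Figure D4:**
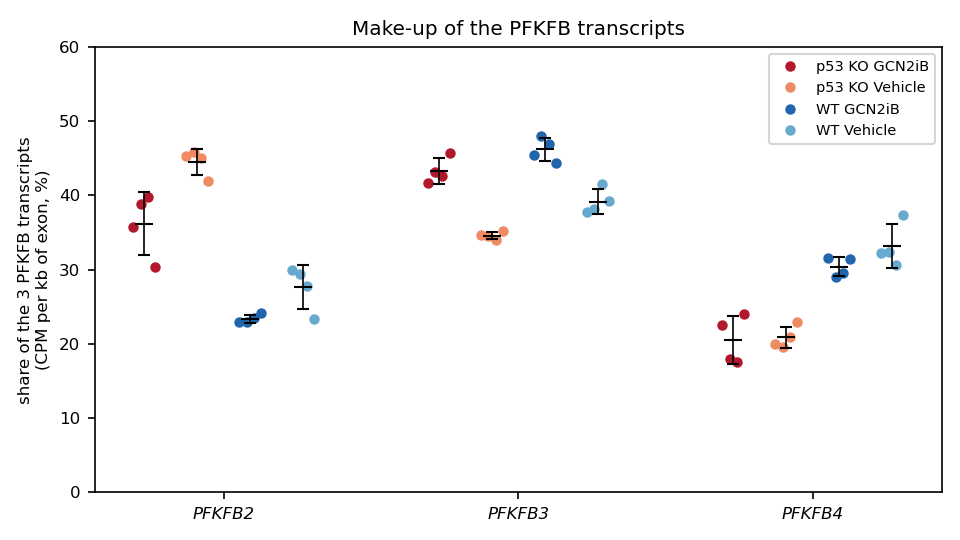
Share of each PFKFB gene in the 3 PFKFB transcripts, from CPM per kilobase of exon, in each library, with bars for the mean and SD of 4 libraries. PFKFB2 is the largest share in p53 KO vehicle (44.5%) and the smallest in both WT groups (23.4% and 27.7%).

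Of the HIF pathway, the 16 tested members had 9 lower and 1 higher in p53 KO vehicle relative to WT vehicle (median -0.29), and 7 lower and 0 higher in p53 KO GCN2iB relative to WT GCN2iB (median -0.16). With GCN2iB 2 rose and 4 fell in p53 KO cells (median 0.09), and 2 rose and 6 fell in WT cells (median -0.10). The shares called were 62.5% between genotypes under vehicle (21.7% of all tested genes), 43.8% under GCN2iB (23.9%), 37.5% with GCN2iB in p53 KO cells (20.1%) and 50% in WT cells (25.2%). HIF1A, the alpha subunit itself, did not pass in any of the 4 comparisons. It averaged 100.4 ± 8.87 CPM in p53 KO GCN2iB, 95.6 ± 9.62 CPM in p53 KO vehicle, 85.3 ± 5.59 CPM in WT GCN2iB and 95.2 ± 12 CPM in WT vehicle. Its log2 ratio of p53 KO over WT was 0.23 under GCN2iB (SE 0.09, adjusted p = 0.0506, 0.00143 to 0.183 over the alternatives) and 0.01 under vehicle (SE 0.09, adjusted p = 0.956). The ratio under GCN2iB passed with library totals (0.0485) and without WT vehicle replicate 1 (0.0425) or 4 (0.0394), WT GCN2iB replicate 1 (0.034) or p53 KO GCN2iB replicate 4 (0.00967). HIF protein is set mainly by its stability, which transcript counts do not measure.

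EGLN1 (ENSG00000135766, chromosome 1, 231363751 to 231425044), the main oxygen-sensing hydroxylase of HIF, rose with GCN2iB in WT cells. It stood at 21.7, 20.7, 16.9 and 17.5 CPM in p53 KO GCN2iB, against 14.9, 17.1, 15 and 16.3 CPM in p53 KO vehicle. In WT cells EGLN1 stood at 23.6, 27.3, 26.2 and 24.1 CPM under GCN2iB, against 13.4, 19.8, 19.8 and 16.5 CPM under vehicle. The WT groups did not overlap (log2 0.53, SE 0.10, adjusted p = 0.000602), and the p53 KO groups did (log2 0.29, SE 0.10, adjusted p = 0.0517, 0.0143 to 0.187 over the alternatives). The p53 KO value passed without WT vehicle replicate 1 (0.0225) or p53 KO GCN2iB replicate 3 (0.0348) or 4 (0.0297). Among other settings, it also passed by DESeq2 (0.0438) and limma voom (0.0493), with no count filter (0.0209) and with only the groups compared (0.0475). Under GCN2iB EGLN1 fell in p53 KO relative to WT (log2 -0.39, adjusted p = 0.00767), and under vehicle its ratio was -0.15 (adjusted p = 0.357). EGLN3, a hydroxylase that HIF induces, fell by 0.26 in p53 KO vehicle relative to WT vehicle (17.6 ± 0.427 against 21.0 ± 1.26 CPM, adjusted p = 0.0103). It rose by 0.23 with GCN2iB in p53 KO cells (20.6 ± 1.35 CPM under GCN2iB, adjusted p = 0.0224, 0.00276 to 0.105 over the alternatives), which ended with library totals (0.105) and without p53 KO vehicle replicate 3 (0.0633) or p53 KO GCN2iB replicate 2 (0.0615) or 4 (0.0644). No count filter (0.0992) and the omission of both GCN2iB replicate 4 libraries (0.0685) also ended that EGLN3 call.

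PDK1 (ENSG00000152256, chromosome 2, 172555373 to 172608669), the HIF-induced kinase that closes pyruvate dehydrogenase and so keeps pyruvate from the mitochondria, was lower both in p53 KO cells and with GCN2iB. It stood at 35.7, 31.3, 30.3 and 33.1 CPM in p53 KO GCN2iB, against 51.1, 37.9, 38.6 and 38.3 CPM in p53 KO vehicle. In WT cells PDK1 stood at 41.8, 39.8, 40.8 and 40.2 CPM under GCN2iB, against 72.0, 58.1, 59.9 and 65.0 CPM under vehicle. The 4 WT vehicle libraries were the highest of the 16 and the 4 p53 KO GCN2iB libraries the lowest. PDK1 fell with GCN2iB by 0.65 in WT cells (SE 0.09, adjusted p = 1.22e-05) and by 0.35 in p53 KO cells (SE 0.09, adjusted p = 0.00745, and 0.0571 with trends on GC content and length removed, within 9.61e-05 to 0.0571 over the alternatives). It fell in p53 KO relative to WT by 0.32 under GCN2iB (adjusted p = 0.0113) and by 0.62 under vehicle (adjusted p = 1.23e-05). PDK3, another kinase of the same enzyme, did not pass in any of the 4 comparisons, with log2 ratios between -0.07 and 0.07.

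BNIP3 and BNIP3L encode receptors that send mitochondria to autophagy and are HIF targets, and both fell in p53 KO under both treatments. BNIP3 (ENSG00000176171, chromosome 10, 131966455 to 131982013), whose promoter is shown above, stood at 244, 217, 202 and 289 CPM in p53 KO GCN2iB, against 289, 291, 332 and 367 CPM in WT GCN2iB. Under vehicle it stood at 248, 192, 212 and 214 CPM in p53 KO, against 316, 293, 297 and 363 CPM in WT. The highest p53 KO GCN2iB library reached the lowest WT GCN2iB library, and the vehicle groups did not overlap. BNIP3 fell by 0.42 under GCN2iB (SE 0.105, adjusted p = 0.00523) and by 0.55 under vehicle (SE 0.105, adjusted p = 0.000576), with 39 annotated pseudogene copies that could share its reads. BNIP3L (ENSG00000104765) stood at 104, 100.2, 101 and 102 CPM in p53 KO GCN2iB, against 136, 128, 132 and 127 CPM in WT GCN2iB. Under vehicle it stood at 132, 106, 105 and 106 CPM in p53 KO, against 172, 151, 156 and 166 CPM in WT. No groups of BNIP3L overlapped between genotypes within a treatment, and it fell by 0.36 under GCN2iB (SE 0.07, adjusted p = 0.000435) and by 0.52 under vehicle (SE 0.07, adjusted p = 4.41e-06). It also fell by 0.30 with GCN2iB in WT cells (adjusted p = 0.00245), while in p53 KO cells the ratio was -0.14 (adjusted p = 0.16, 0.0173 to 0.572 over the alternatives), which passed with library totals (0.0362).

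KDM3A (ENSG00000115548, chromosome 2, 86440647 to 86492716), a HIF-induced histone demethylase, stood at 39.3, 35.6, 35.4 and 30.5 CPM in p53 KO GCN2iB, against 42.3, 40.7, 46.0 and 43.4 CPM in WT GCN2iB. Under vehicle KDM3A stood at 36.6, 32.6, 32.2 and 28.3 CPM in p53 KO, against 53.1, 45.0, 43.7 and 43.0 CPM in WT. The genotypes did not overlap within either treatment. KDM3A fell by 0.51 under vehicle (SE 0.09, adjusted p = 0.000117) and by 0.29 under GCN2iB (adjusted p = 0.0151, 0.000169 to 0.0764 over the alternatives), where the call ended without WT GCN2iB replicate 3 (0.0581) and without both GCN2iB replicate 4 libraries (0.0764). VEGFA, the angiogenic growth factor, was the member that fell in all 4 comparisons beside PDK1, at 78.7 ± 5.64 CPM in p53 KO GCN2iB, 109 ± 5.46 CPM in p53 KO vehicle, 101 ± 3.99 CPM in WT GCN2iB and 137 ± 5.99 CPM in WT vehicle. GCN2iB lowered VEGFA by 0.47 in p53 KO cells (adjusted p = 9.95e-06) and by 0.45 in WT cells (adjusted p = 1.52e-05), and p53 KO lay 0.35 and 0.32 below WT under GCN2iB and vehicle (adjusted p = 0.000206 and 0.0004). ANKRD37, an ankyrin repeat protein induced by HIF, fell in p53 KO by 0.38 under GCN2iB (adjusted p = 0.0258, 0.00146 to 0.078 over the alternatives) and by 0.44 under vehicle (adjusted p = 0.0108, 0.00117 to 0.0543 over the alternatives). Under vehicle its call was lost when WT vehicle replicate 4 was left out (0.0543), and under GCN2iB without WT GCN2iB replicate 2 (0.078) or 3 (0.0639) or p53 KO GCN2iB replicate 1, 2 or 3 (0.059 to 0.0661). On the opposite strand 35.2% of its exon bases lie under another gene, and the strand setting of the counting is not known.

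Collagen prolyl hydroxylase has 2 alternative alpha subunits among the members, which went opposite ways. P4HA1 fell by 0.45 in p53 KO vehicle relative to WT vehicle (55.2 ± 5.9 against 75.6 ± 7.51 CPM, adjusted p = 0.000153) and by 0.31 with GCN2iB in WT cells (61.0 ± 4.15 CPM under GCN2iB, adjusted p = 0.0057). Between genotypes under GCN2iB its ratio was -0.17 (adjusted p = 0.122, 0.00104 to 0.274 over the alternatives), which passed without p53 KO vehicle replicate 1 (0.045). P4HA2 rose by 0.30 with GCN2iB in WT cells (22.8 ± 1.54 against 18.4 ± 1.44 CPM, adjusted p = 0.00901) and by 0.27 in p53 KO vehicle relative to WT vehicle (22.3 ± 1.49 CPM in p53 KO, adjusted p = 0.0205, 0.00145 to 0.0792 over the alternatives). The genotype call for P4HA2 was lost when p53 KO vehicle replicate 4 (0.0792) or WT vehicle replicate 1 (0.0651) or 3 (0.0627) was left out. BHLHE40, a transcriptional repressor induced by HIF, fell by 0.44 in p53 KO vehicle relative to WT vehicle (34.9 ± 1.15 against 47.5 ± 3.3 CPM, adjusted p = 1.22e-05) and rose by 0.28 with GCN2iB in p53 KO cells (42.5 ± 2.28 CPM under GCN2iB, adjusted p = 0.00239). Under GCN2iB its genotype ratio was -0.15 (adjusted p = 0.0774, 0.0292 to 0.168 over the alternatives), which passed without WT vehicle replicate 1 (0.0415) or 3 (0.0428), p53 KO vehicle replicate 1 (0.0384) or 4 (0.0491) or p53 KO GCN2iB replicate 1 (0.036). NDRG1, a stress-induced gene, fell with GCN2iB by 0.33 in p53 KO cells (118 ± 8.01 against 149 ± 6.66 CPM, adjusted p = 0.000614) and by 0.26 in WT cells (129 ± 6.85 against 154 ± 8.65 CPM, adjusted p = 0.00354), and did not pass between genotypes. CA12, a membrane carbonic anhydrase, fell with GCN2iB by 0.26 in p53 KO cells (adjusted p = 0.0397, 0.00894 to 0.139 over the alternatives) and by 0.30 in WT cells (adjusted p = 0.0146, 0.00191 to 0.0677 over the alternatives). In p53 KO cells the CA12 call was lost without p53 KO GCN2iB replicate 2 or 4 (0.139 and 0.123), p53 KO vehicle replicate 1, 2 or 3 (0.077 to 0.105) or WT vehicle replicate 2 or 3 (0.0505 and 0.0501). It was also lost there with only the groups compared (0.0686) and without both GCN2iB replicate 4 libraries (0.105). In WT cells leaving out WT GCN2iB replicate 4 (0.0672) or WT vehicle replicate 2 (0.0597) or 3 (0.0677) ended the CA12 call. ADM, which encodes the vasodilator adrenomedullin, was low at 0.263 to 0.749 CPM and did not pass in any of the 4 comparisons.

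**Figure D5:**
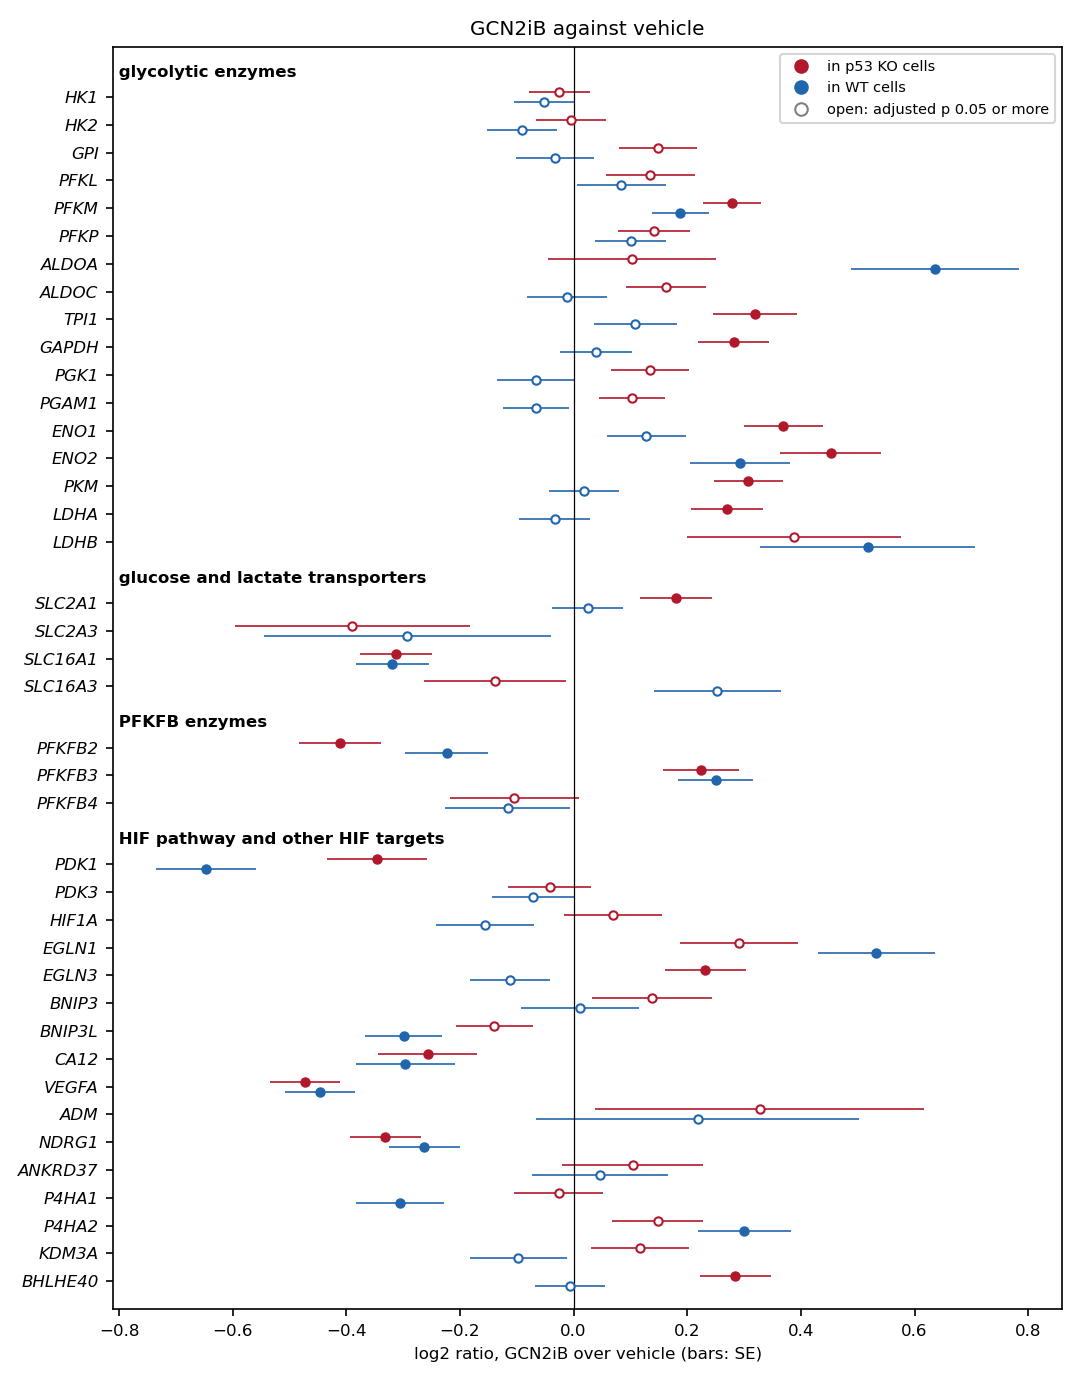
The log2 ratio of GCN2iB over vehicle for each of the 40 tested members, in p53 KO cells and in WT cells, with SE bars; filled points have an adjusted p under 0.05. ENO1, LDHA, GAPDH, PKM and TPI1 are filled and above 0 in p53 KO cells and open in WT cells, while VEGFA, NDRG1, CA12, SLC16A1, PFKFB2 and PDK1 are filled and below 0 in both.

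The GCN2iB responses of the genotypes were also tested against each other, as the response in p53 KO minus that in WT. No member passed by the 3 tests given here, none of which had a term for replicate number, so a call in one genotype alone does not show that the responses differ. The edgeR test called 0 of 40 members with a smallest adjusted p of 0.324, where 0.00539% of all tested genes were called. Its unadjusted p was under 0.05 for 11 of 40 members, and for 1754 of 18549 tested genes. DESeq2 called 0, with 10 at an unadjusted p under 0.05, and limma voom called 0, with 12. The difference was positive for 30 of 40 members and for 10156 of 18549 tested genes, with a median of 0.10 for the members and 0.02 for all genes. Among the glycolytic enzymes 15 of 17 were positive and the median was 0.17. For LDHA it was 0.30 (SE 0.09, unadjusted p = 0.00233), for PKM 0.29 (SE 0.09, 0.0028), for EGLN3 0.34 (SE 0.10, 0.00223) and for BHLHE40 0.29 (SE 0.09, 0.00325), the 4 members with the smallest unadjusted p. For PFKFB4 the difference was 0.01 (SE 0.16) and for SLC16A1 0.01 (SE 0.09).

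Beyond the members, 90 further genes of glycolysis, pyruvate and glycogen metabolism or of the hypoxia response were listed, and 74 of them were tested. In p53 KO vehicle relative to WT vehicle 16 of 39 other hypoxia genes fell and 3 rose, and 7 of 35 other genes of sugar metabolism fell and 1 rose. In p53 KO GCN2iB relative to WT GCN2iB 12 of 39 hypoxia genes fell and 4 rose, and 5 of 35 sugar genes fell and 6 rose. With GCN2iB in p53 KO cells 5 of the 39 fell and 2 rose, and 5 of the 35 fell and 3 rose. In WT cells 9 of the 39 fell and 3 rose, and 6 of the 35 fell and 0 rose. The sugar genes were called at about the share of all tested genes in p53 KO vehicle relative to WT vehicle (22.9% against 21.7%) and with GCN2iB in p53 KO cells (22.9% against 20.1%), below it with GCN2iB in WT cells (17.1% against 25.2%) and above it between genotypes under GCN2iB (31.4% against 23.9%). The hypoxia genes were called at 48.7% against 21.7% between genotypes under vehicle, 41% against 23.9% under GCN2iB, 17.9% against 20.1% with GCN2iB in p53 KO cells and 30.8% against 25.2% in WT cells. These counts moved by over 1.5 times when single libraries were left out. Of the sugar genes in p53 KO vehicle relative to WT vehicle, 4 fell without p53 KO vehicle replicate 3, 0 rose without p53 KO vehicle replicate 1 or 2 or WT vehicle replicate 2, and 2 rose without WT GCN2iB replicate 3. With library totals as the only scaling 4 of them fell and 5 rose. Of the hypoxia genes in the same comparison 5 rose without p53 KO GCN2iB replicate 4. Under GCN2iB 3 sugar genes fell without WT GCN2iB replicate 1, and 2 hypoxia genes rose without WT GCN2iB replicate 1, 2 or 3 or p53 KO GCN2iB replicate 1 or 2. With GCN2iB in p53 KO cells 1 sugar gene rose without p53 KO GCN2iB replicate 2. Of the hypoxia genes there, 6 rose and 3 fell without p53 KO vehicle replicate 1, 1 rose without p53 KO vehicle replicate 2 or 3 or p53 KO GCN2iB replicate 1, 2 or 4, 2 fell without p53 KO vehicle replicate 3 or p53 KO GCN2iB replicate 4, and 3 fell without p53 KO GCN2iB replicate 2. With GCN2iB in WT cells 1 sugar gene rose without p53 KO GCN2iB replicate 4, p53 KO vehicle replicate 1 or WT vehicle replicate 1.

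TMEM45B, which encodes a transmembrane protein, was 2.55-fold lower in p53 KO under GCN2iB (3.98 ± 0.923 against 10.2 ± 0.665 CPM, adjusted p = 3.63e-08) and 2.61-fold lower under vehicle (4.42 ± 0.551 against 11.5 ± 0.721 CPM, adjusted p = 1.14e-08). SLC2A12, the glucose transporter GLUT12, fell by 0.76 in p53 KO under GCN2iB and by 0.87 under vehicle, and ARNT2, a partner subunit of HIF, by 0.76 under GCN2iB and 0.94 under vehicle. Under vehicle STC1, a secreted glycoprotein, fell 2.27-fold in p53 KO, PPFIA4, a liprin, 1.6-fold, and TIGAR, the p53-induced phosphatase, 1.6-fold (3.0 ± 0.306 against 4.83 ± 0.437 CPM, adjusted p = 0.00044). DDIT4, the hypoxia-induced inhibitor of mTORC1, fell 1.82-fold with GCN2iB in p53 KO cells (179 ± 32.6 against 327 ± 18.2 CPM, adjusted p = 2.11e-06) and 1.8-fold in p53 KO GCN2iB relative to WT GCN2iB (322 ± 21.3 CPM in WT, adjusted p = 1.26e-06). MLXIPL, the glucose-responsive factor ChREBP, fell 1.57-fold with GCN2iB in p53 KO cells (adjusted p = 0.000398). In p53 KO GCN2iB relative to WT GCN2iB INSIG2, a regulator of sterol synthesis, fell by 0.59 and HIGD1A, a mitochondrial protein, rose by 0.59.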

How the data were processed

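RNA of 16 LNCaP libraries, 4 in each of 4 groups, was sequenced as read pairs. The authors deposited raw counts per gene, with Ensembl gene IDs. Per the submitters' processing notes Trim Galore, HISAT2, featureCounts and DESeq2 were used with the GRCh38 genome. Not given in the sources used here are their versions, the gene annotation and the strandedness of the counting. Names and positions were taken from GENCODE release 29 and promoter sequences from RefSeq.

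Differences were tested with edgeR 4.0.16 (R 4.3.3, limma 3.58.1; robust quasi-likelihood, two-sided) on the counts as deposited, after filterByExpr and TMM scaling, with 1 fit of the 4 groups and Benjamini-Hochberg adjustment over 18549 genes at a threshold of 0.05. These genes held at least 99.906% of each library's counts. The members, the wider lists and the tests were chosen with earlier results of these data known. Members given for every library were those with a called log2 ratio of at least 0.5 in size and groups that do not overlap, and the most abundant form of each enzyme. Up to 6 further genes per comparison were named by the same size, smallest adjusted p first.

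The alternatives were DESeq2 size factors, library totals, no count filter, a filter at a mean of 50 counts, tests by DESeq2 1.42.0 and limma voom, only the groups compared, replicate number as a block, both GCN2iB replicate 4 libraries left out and each library left out in turn. A smooth trend on GC content and exon length (a spline with 5 degrees of freedom, fitted on 12999 genes and applied to 17678) was added after the data were seen. Tables and figures were made with Python 3.11.15, pandas 2.3.3, numpy 2.4.6 and matplotlib 3.10.9. The edgeR procedure was tested on simulated data. No pair of libraries had identical counts.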

Additional observations from a re-analysis of the deposited data

Results flagged for a closer look

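In each group of 4 libraries, the highest or lowest library was compared with the others by Dixon's gap test at its 95% critical value, which chance passes in about 1 in 20 groups. Of 160 groups (40 tested members in 4 groups) 8 had such a library, which is 1 in 20. The members share the same 16 libraries, so the groups are not independent and this count cannot be read against chance. The p53 KO vehicle replicate 1 library held 5 of the 8. There TPI1 stood at 785 CPM (the other 3 libraries of the group at 877 to 892), GAPDH at 1540 CPM (others 1720 to 1760), PDK1 at 51.0 CPM (others 37.9 to 38.6), BNIP3L at 132 CPM (others 105 to 106) and ADM at 0.263 CPM (others 0.491 to 0.513). Without that library TPI1, GAPDH, PDK1 and BNIP3L were still lower in p53 KO vehicle than in WT vehicle by the edgeR test. In WT vehicle replicate 1, SLC16A1 stood at 192 CPM (others 168 to 169). In WT vehicle replicate 4, SLC16A3 stood at 14.1 CPM (others 10.3 to 10.8). In p53 KO GCN2iB replicate 4, PFKFB2 stood at 57.4 CPM (others 66.2 to 67.8).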

How the results depend on the processing

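Of 81 called results (a member in a comparison) 62 were called under every alternative that gave them a value (26, or 25 for SLC2A3) and 19 were lost under at least 1, while 20 of 119 results not called in the report were called under at least 1; 0 of the called results changed direction. The number of the 40 members called lay, with single libraries left out, between 28 and 30 for p53 KO over WT under vehicle, 14 and 24 under GCN2iB, 13 and 18 for GCN2iB in p53 KO cells, 11 and 16 for GCN2iB in WT cells, and at 0 for the difference between the responses. The other alternatives gave 28 to 30, 19 to 27, 14 to 22, 14 to 17 and 0 to 1 members in the same order. Restricting the fit to the groups compared could not be done for the difference between the responses, which uses all 4. The filter at a mean of 50 counts removed SLC2A3 and ADM.

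With replicate number as a block 30, 27, 21 and 17 members were called in the 4 comparisons in that order, and 1, LDHA (log2 0.30, adjusted p = 0.0491 by edgeR, 0.0491 to 0.625 over the alternatives), for the difference between the responses, where 20 of 40 had an unadjusted p under 0.05; of the 17 glycolytic enzymes 11, in place of 6, fell in p53 KO GCN2iB relative to WT GCN2iB. The labels do not say what a number marks. Same-numbered libraries deviated together (r over 0.1) in 12 of 24 pairs, with a median r of 0.0936 against -0.0361 for other pairs, and 11 of 16 libraries were closest to their own number on average. This is a hint from the data, not from the design, that part of the numbers mark something shared; since not every pair was over 0.1, the fit without the block was kept in the report. Levels under 1 CPM (SLC2A3 and ADM) rest on few counts, and CA9, with 29 counts in all, entered only the fit with no count filter. The clone or pool, the culture and the library cannot be told apart from the genotype or the treatment.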
